A study of Mus musculus with 6 samples.

Results

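Eif5a and Sat1 were the host genes of 4 guide RNAs in a pooled CRISPR-Cas9 growth screen of mouse embryonic stem cells. The guides were found by their names in the deposited count table, which gave 2 guides for each host among 145 targeting guides on 73 hosts. All 4 were counted in each library and were tested. The cells were the line #693 ES C57BL/6, with the genotype given as C57/BL6. All of them were infected with the same pooled lentivirus, built in lentiCRISPR v2, which carries both Cas9 and a guide, so day 0 is a day of the infected pool and not an uninfected control. Guide representation was measured in 3 libraries of day 0 and 3 of day 10, which the labels call biological replicates 1 to 3 and the column names call screens 1 to 3. The labels name a single cell line, and neither the rate of cutting nor the expression of the hosts was analysed here.

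Eif5a encodes the translation factor eIF5A, which helps ribosomes through difficult peptide stretches and helps terminate translation. It carries hypusine, a modified lysine that is made from the polyamine spermidine and is needed for the factor's activity. Sat1 encodes spermidine/spermine N1-acetyltransferase, which acetylates polyamines and so starts their breakdown and export. The protein therefore acts on the same spermidine that serves as the source of hypusine. The guides were aimed at upstream translons, short translated stretches ahead of the coding sequence of a transcript, and not at the coding sequences themselves. Of 27 genes on a list of polyamine and hypusine genes, only these 2 were hosts in the screen. The other 25, among them the genes of ornithine decarboxylase and of the enzymes that make hypusine, were not in the table.

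The 4 guides are shown 5′ to 3′ because each is the measured item, with the 12 bases next to the PAM, which matter most for target recognition, in capitals.
Eif5a guide 1: gcacacggGTCTTAGTACGC
Eif5a guide 2: cagcacagTAGCGGGTTCGG
Sat1 guide 1: acaggggcCTGGTGCGCAAA
Sat1 guide 2: ccctgtacTTGAACAGCAGG
Their GC content was 60% and 65% for Eif5a guides 1 and 2 and 65% and 55% for Sat1 guides 1 and 2. None of the 4 held an ATG on either strand. Eif5a guide 2 shared the 11 bases agcgggttcgg with both guides against Eif2s2, and no other member shared more than 8 bases in a row with another named guide on either strand.

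Both Eif5a guides matched the start region of Eif5a in RefSeq promoter sequences of GRCm38.p6, which run from 250 bases before to 50 after each annotated start. The gene lies on chromosome 11 from 69916712 to 69921958, on the minus strand. The matched sites are shown with the adjacent PAM, the NGG motif that Cas9 needs, in capitals.
Eif5a guide 1 site: gcacacgggtcttagtacgcAGG
Eif5a guide 2 site: cagcacagtagcgggttcggAGG
The guide 1 match spanned chr11:69921281-69921300 on the plus strand, opposite to the gene. The guide 2 match spanned chr11:69921220-69921239 on the minus strand. The predicted cuts, 3 bases from the PAM, were 75 bases apart. RefSeq gave 6 start windows for Eif5a, and the sites lay differently against their starts. Guide 1 lay 86 to 105 bases downstream of the start at 69921386 but 6 to 25 bases upstream of the start at 69921275. Guide 2 lay 147 to 166 and 36 to 55 bases downstream of these 2 starts. Both sites were downstream of the farthest start, at 69921958, and upstream of those at 69921085, 69920947 and 69920630. Whether a site is transcribed, and in which exon or intron it falls, depends on the start used and was not analysed here. In 32851 start windows of the mouse, neither Eif5a guide had any other site with up to 3 mismatches and an NGG.

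Neither Sat1 guide was found in the single start window of Sat1, or elsewhere among these windows with up to 3 mismatches, so no position is given for them. The symbol Sat1 was matched to the gene on chromosome X from 155213126 to 155216449. The assignment of these guides to the acetyltransferase rests on the name in the table.

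Depth differed widely between libraries. Named guides had between 102313 and 602476 counts at day 0 and between 21991 and 784149 at day 10, and the shallowest library was day 10 of screen 3. Counts per 1e6 counts (CPM) were scaled between libraries with edgeR's TMM factors, which assume that most guides do not change. Changes are log2 fold changes of day 10 against day 0, tested in edgeR by quasi-likelihood. Their p-values were adjusted by Benjamini-Hochberg over all 136 tested guides or 67 tested hosts, at a threshold of 0.05.

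The comparison of the days asks whether cells that carry these guides became more or less frequent over 10 days of growth. The Eif5a host rose, and both of its guides had a higher mean at day 10, though guide 2 alone passed the test. The log2 fold change of the host was the highest of the 67. Sat1 as a host did not pass the test, and its 2 guides lay on opposite sides of 0. Among the hosts, 25 of 67 (37.3%) were past the threshold and 10 of 67 (14.9%) were past it and higher. Of the members 1 of 2 was called, and a count out of 2 is too small to set against these shares. Without day 0 replicate 1, and also without day 0 replicate 3, 15 hosts were past the threshold.

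Eif5a guides were a small part of the pool. Together they made up 0.350%, 0.292% and 0.342% of named counts at day 0 of screens 1 to 3, and the host ranked 60th of 67 by day 0 CPM. At day 10 they made up 0.467%, 0.539% and 0.355%. In CPM, the host stood at 3486, 2934 and 3384 at day 0 and at 4715, 5411 and 3539 at day 10. The day 10 libraries all lay above the day 0 libraries, but day 10 of screen 3 exceeded the highest day 0 library by little. Days without overlap, in either direction, were seen in 32 of 67 hosts (47.8%). Mean CPM was 3268 ± 294 at day 0 and 4555 ± 946 at day 10 (SD, n = 3 per day). The fitted log2 fold change was 0.55, with an SE of 0.13 (adjusted p = 0.00366 in edgeR). When the screen number also entered the fit, it was 0.51, with an SE of 0.16 (adjusted p = 0.0379 in edgeR).

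Eif5a guide 2, whose site lies downstream of more of the starts, had 199, 185 and 1144 counts at day 0 and 1691, 2113 and 49 at day 10. In CPM these were 1938, 1630 and 1878 at day 0 against 2640, 2705 and 2223 at day 10. Each day 10 library was above each day 0 library. The guide rose by 0.49 ± 0.14 on the log2 scale (SE), at an edgeR adjusted p of 0.0394, and ranked 4th of 136 guides. It was the single member guide past the threshold, 1 of 4, where 29 of 136 guides (21.3%) were past it and 9 of 136 (6.62%) were past it and higher. When the screen number entered the fit as a replicate block, its edgeR adjusted p was 0.0790 at a log2 fold change of 0.49, and 12 of 136 guides (8.82%) were past the threshold. Without day 0 replicates 1, 2 and 3 in turn its edgeR adjusted p was 0.115, 0.169 and 0.170, and 3, 5 and 10 guides were past the threshold, against 47 without day 10 replicate 1.

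Eif5a guide 1, whose site is on the other strand, had 159, 148 and 918 counts at day 0 and 1329, 2114 and 29 at day 10. Its CPM values were 1548, 1304 and 1507 at day 0 and 2075, 2706 and 1316 at day 10. Screens 1 and 2 were higher at day 10 than any day 0 library, while day 10 of screen 3 lay within the day 0 range. The log2 fold change of 0.54 ± 0.22 (SE) was as large as that of guide 2 but had a wider error, and its edgeR adjusted p was 0.116. It passed the threshold without day 10 replicate 1, at 0.69 (edgeR adjusted p = 3.9e-04), and without day 10 replicate 3, at 0.72 (edgeR adjusted p = 0.0275), and was 0.31 without day 10 replicate 2. Without both libraries of screen 2 it was 0.21 (edgeR adjusted p = 0.635). The fitted changes of the 2 Eif5a guides differed by 0.05, against a median of 0.18 over the 63 hosts with 2 tested guides. Without day 10 replicates 1, 2 and 3 in turn they differed by 0.19, 0.17 and 0.16, against medians of 0.13, 0.23 and 0.19, so the closeness of the 2 guides rests on all 3 day 10 libraries together.

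The change of Eif5a was uneven between screens. The log2 ratio of day 10 over day 0 for the host was 0.44 in screen 1, with a 95% interval of 0.28 to 0.60, and 0.88 in screen 2, with an interval of 0.72 to 1.05. In screen 3 it was 0.06, with an interval of −0.28 to 0.39, and it turned to −0.18 with library sizes from the control guides. Each is 1 library against 1, and the intervals are exact (Clopper-Pearson) and cover counting error only. Screen 2 showed the largest ratio for both guides, at 1.05 for guide 1 and 0.73 for guide 2, and it also had the lowest Eif5a share at day 0. For the host, the interval of screen 2 overlapped neither that of screen 1 nor that of screen 3, while those of screens 1 and 3 overlapped. In screen 3 the day 10 value rested on 78 counts of the host. The guides there had log2 ratios of −0.20 and 0.24, with intervals from −0.78 to 0.34 and from −0.20 to 0.66, and −0.44 and 0.00068 with library sizes from the controls. Without both libraries of screen 2, the log2 fold change of the host was 0.36 (edgeR adjusted p = 0.0613). With a host taken as the mean log2 CPM of its guides in place of their sum, it was 0.45 (limma adjusted p = 0.145).

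Control guides give the range of change seen without a translon target. The 6 controls, of which 3 are non-targeting and 3 safe-targeting, had log2 fold changes from −0.42 to 0.55 with a median of 0.06. None was past the threshold in edgeR (0 of 6, with 1 at an unadjusted p under 0.05), and none in DESeq2 (0 of 6, with 2 at an unadjusted p under 0.05). The 2 kinds differed, with non-targeting guides 1 to 3 at 0.13, 0.32 and 0.55 and safe-targeting guides 1 to 3 at 0.0024, −0.37 and −0.42. Both Eif5a guides lay within the range of the 6 controls through non-targeting guide 3 alone, and above each safe-targeting guide. Summed, the controls stood at 12288, 13235 and 12421 CPM at day 0 and at 13373, 13380 and 14701 at day 10. The control sum of day 10 of screen 3 rested on 324 counts. With library sizes taken from the controls, the size of that library moved most relative to TMM, by 0.15 on the log2 scale. The median of all tested guides shifted by −0.11 with these sizes. The Eif5a host was then at a log2 fold change of 0.43, with an SE of 0.15 (adjusted p = 0.0491 in edgeR), and Eif5a guide 2 was no longer past the threshold, at 0.38 (edgeR adjusted p = 0.174). Under that scaling 16 hosts were lower and 1 was higher past the threshold, against 15 and 10 with TMM, and the 1 higher host was Eif5a. For guides the split was 23 lower and 1 higher, against 20 and 9, and the 1 higher guide, named after its value was seen, was Rhoa guide 2.

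A ratio of counts within a library does not depend on the scaling between libraries. There were 5 such ratios, compared between the days with exact two-sided permutation tests in which 3 libraries against 3 cannot go below p = 0.1. Eif5a counts were 0.284, 0.222 and 0.273 of the control counts at day 0 and 0.353, 0.404 and 0.242 at day 10. The days overlapped through screen 3, and the log2 ratio changed by 0.34 ± 0.25 (SE, n = 3 per day, exact permutation p = 0.3, adjusted 0.375), higher in 2 of 3 screens. Leaving out day 10 replicate 2 gave 0.18, and leaving out day 10 replicate 3 gave 0.55. Against the non-targeting controls alone the change was 0.13 (exact permutation p = 0.7) and against the safe-targeting controls alone 0.63 (exact permutation p = 0.3).

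Eif5a guide 1 over guide 2 was nearly constant at day 0, at 0.799, 0.801 and 0.803. At day 10 it was 0.786, 1.0005 and 0.596. The day 10 values lay on both sides of the narrow day 0 range. That range takes no account of counting error, and guide 1 had 159 and 148 counts at day 0 of screens 1 and 2. The change in log2 ratio was −0.04 ± 0.22 (SE, n = 3 per day, exact permutation p = 0.7, adjusted 0.7), and it turned to 0.15 without day 10 replicate 3, where guide 1 had 29 counts.

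Sat1 guides were more abundant, and the sum of their counts changed little. Guide 2 made up most of that sum, at a mean of 8749 CPM at day 0 against 3160 for guide 1. The host made up 1.18%, 1.24% and 1.17% of named counts at day 0 and 1.19%, 1.19% and 1.12% at day 10. Its CPM values were 11743, 12460 and 11525 at day 0 and 12007, 11990 and 11208 at day 10. The days overlapped. The mean was 11909 ± 489 at day 0 and 11735 ± 457 at day 10 (SD, n = 3 per day), and the fitted log2 fold change was −0.0089, with an SE of 0.0757 (adjusted p = 0.923 in edgeR). Its sign was not settled, since it was positive in 7 of 18 alternatives, DESeq2 size factors and the removal of the GC trend among them, within a range from −0.12 to 0.02. With the host taken as the mean log2 CPM of its guides in place of their sum, the log2 fold change was −0.12 (limma adjusted p = 0.173). By screen the log2 ratios of the summed host were 0.03, −0.06 and −0.04, and each 95% interval for counting error held 0.

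Sat1 guide 1 had 339, 348 and 1897 counts at day 0 and 1592, 2090 and 55 at day 10. In CPM these were 3301, 3066 and 3113 at day 0 against 2486, 2676 and 2496 at day 10. Each day 10 library was below each day 0 library. Days without overlap, in either direction, were seen in 2 of the 4 member guides, this one and Eif5a guide 2, and in 52 of 136 guides (38.2%). The log2 fold change was −0.30 ± 0.11 (SE) with an edgeR adjusted p of 0.0981, so the guide did not pass the threshold. It was negative in all 17 alternatives, from −0.42 to −0.24, with adjusted p-values from 0.0548 to 0.309. Of its ratios by screen, −0.41, −0.20 and −0.32, those of screens 1 and 2 had 95% counting intervals below 0.

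Sat1 guide 2 was the most frequent of the 4, with 867, 1066 and 5125 counts at day 0 and 6098, 7276 and 192 at day 10. Its CPM values were 8442, 9393 and 8411 at day 0 and 9521, 9315 and 8712 at day 10. The days overlapped, and the fitted log2 fold change was 0.08, with an SE of 0.08 (adjusted p = 0.510 in edgeR). With library sizes from the controls its sign turned, at −0.030 (edgeR adjusted p = 0.816). By screen the log2 ratios were 0.17, −0.01 and 0.05.

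The 2 Sat1 guides drew apart from each other between the days. Guide 1 counts were 0.391, 0.327 and 0.370 of guide 2 counts at day 0 and 0.261, 0.287 and 0.288 at day 10. No day 10 ratio reached the lowest day 0 ratio. The log2 ratio changed by −0.38 ± 0.09 (SE, n = 3 per day, exact permutation p = 0.1, the smallest possible, adjusted 0.167), in the same direction in 3 of 3 screens. Guides of opposite sign are common in these data, at 23 of 63 hosts with 2 tested guides (36.5%). The Sat1 pair ranked 16th of 63 by the size of its difference, and the Eif5a pair 56th. Without single day 10 libraries the Sat1 pair ranked 18th, 19th and 14th, and the Eif5a pair 27th, 42nd and 35th.

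Eif5a counts were higher relative to Sat1 counts at day 10 in each screen. Eif5a counts were 0.297, 0.236 and 0.294 of Sat1 counts at day 0 and 0.393, 0.451 and 0.317 at day 10. All day 10 ratios were above all day 0 ratios, although day 10 of screen 3 was above by little. The change in log2 ratio was 0.48 ± 0.18 (SE, n = 3 per day, exact permutation p = 0.1, the smallest possible, adjusted 0.167), at 0.40, 0.94 and 0.11 in screens 1 to 3. Against the controls, Sat1 changed by −0.15 ± 0.08 (SE, n = 3 per day, exact permutation p = 0.1, adjusted 0.167), lower in 3 of 3 screens, and by −0.070 without day 10 replicate 3. Against the non-targeting controls alone the change was −0.35 (exact permutation p = 0.1), and against the safe-targeting controls alone it turned to 0.15 (exact permutation p = 0.7). None of the 5 ratios could reach 0.05 in this design.

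Hosts of start codon selection are another set of translation factors in the screen, and their values stand here for comparison without a test of the difference. Eif5, which encodes the factor that triggers GTP hydrolysis at the start codon, changed by −0.23 ± 0.12 on the log2 scale (SE, edgeR adjusted p = 0.129). Bzw1, which encodes a protein that mimics part of eIF5, had 0.09 ± 0.08 (SE, edgeR adjusted p = 0.447). Its 2 guides also lay on opposite sides of 0, at 0.27 for guide 1 and −0.65 for guide 2. Bzw1 guide 2 was past the threshold for guides (edgeR adjusted p = 0.0459), and guide 1 was not (edgeR adjusted p = 0.0564). Eif2s2, which encodes the beta subunit of eIF2, had 0.03 ± 0.05 (SE, edgeR adjusted p = 0.665). Its guides, which share 11 bases with Eif5a guide 2, had −0.03 and 0.06. None of these 3 hosts was past the threshold.

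The hosts whose log2 CPM followed Eif5a most closely over the 6 libraries were Etf1, which encodes the release factor eRF1, with a Pearson r of 0.931, Spns1, which encodes a lysosomal transporter, with 0.929, and Mtfr1 with 0.828. These points share libraries, depth and scaling, so the values are a description. Etf1 rose by 0.35 ± 0.11 on the log2 scale (SE, edgeR adjusted p = 0.0160), which ranked 2nd of 67 hosts. The days overlapped for Etf1, and its guides 1 and 2 were not past the threshold (edgeR adjusted p = 0.149 and 0.141). Spns1 changed by 0.26 (edgeR adjusted p = 0.00677) and Mtfr1 by 0.17 (edgeR adjusted p = 0.124). Closest to Sat1 were Nhp2 with 0.889, Sfpq with 0.746 and Pa2g4 with 0.689, none of which was past the threshold. Between Eif5a and Sat1 themselves r was 0.050.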

How the data were processed

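The authors deposited raw counts of guide sequences, with a row per guide and a column per screen and day, per the file headers. Bowtie2 2.3.4.3 is named in the submitters' processing notes, and the counting rule is not given in the sources used here. Empty entries were set to 0 counts. The 216 unnamed sequences took 1.25% to 1.48% of a library and were left out. Members, lists and tests were chosen with earlier results of these data known, and the guides named are all guides of both hosts, the controls, 3 start codon hosts and the 3 hosts most alike to each member.

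Tests took in guides that reached 10 counts in 3 or more of the 6 libraries and were run with edgeR 4.0.16 in R 4.3.3, with TMM sizes and day as the only term. Counts of a host's guides were summed, with the same sizes. The SE is the size of the log2 fold change over the square root of F. Ratios used a pseudocount of 0.5 per count, and log2 CPM a pseudocount of 1. Alternatives used DESeq2 1.42.0, limma 3.58.1, other size factors, no filter, a replicate block and fits without libraries or screens. The edgeR fit was tested on simulated data, with a single dispersion for all guides and no screen effect. The simulation therefore does not cover the uneven spread of the real libraries. The column names give a screen number to both days, so the libraries of a number were treated as a pair in the values by screen and in the replicate block. The main edgeR fits and the exact permutation tests did not use these pairs. Deviations of paired libraries from the day means correlated at −0.093, −0.198 and −0.017 in screens 1 to 3. Ratios and permutation tests were run in Python 3.11.15 with scipy 1.17.1 and numpy 2.4.6.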

Additional observations from a re-analysis of the deposited data

How the results depend on the processing

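Removal of the GC trend, alone or with the block, was chosen after the data were seen. The fit with no count filter tested the same 136 guides and repeated the main fit. It is counted as unchanged in each tally of alternatives and adds no support. The Eif5a host had a positive log2 fold change in all 18 alternatives, from 0.36 to 0.67, and an adjusted p under 0.05 in 16; the exceptions were the fit without both libraries of screen 2 (0.36) and limma on the mean of the guides (0.45). Eif5a guide 2 was positive in all 17 but under the threshold in 8. It was over it with control size factors (0.38), the replicate block (0.49), the GC trend removed (0.45) or removed with the block (0.45), and without both libraries of screen 2 (0.39) or 3 (0.59). Without single libraries it ranged from 0.42 to 0.56. Eif5a guide 1 was past the threshold without both libraries of screen 1 (0.70) and lowest, not past it, without those of screen 2 (0.21), and without single libraries it ranged from 0.31 to 0.72. The Sat1 host was positive with DESeq2 size factors (0.0038), without both libraries of screen 2 (0.022), with the GC trend removed (0.025) or removed with the block (0.012), and without day0 replicate 2 (0.023), day10 replicate 2 (0.0021) or day10 replicate 3 (0.013). Without single libraries it ranged from −0.025 to 0.023. With control size factors Sat1 guide 2 was at −0.030, and the Sat1 log2 ratios in screens 1 and 3 were −0.090 and −0.28, and that of the Eif5a host in screen 3 was −0.18. Eif5a guide 1 over guide 2 ranged from −0.23 to 0.15 without single libraries, and Sat1 over the safe-targeting controls changed by 0.15.

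Guides past the threshold, 29 of 136, became 12 with the replicate block, 10 and 12 without screen 2 or 3, and 10 with the GC trend removed (10 lower, 0 higher) and also with the block (9 lower, 1 higher), and 3 to 47 without single libraries. Hosts past it, 25 of 67, became 15 with limma on guide means and 15 to 30 without single libraries. The cause was not tested. The replicate block changed no call among the members other than that of Eif5a guide 2. Of 237 comparisons with alternatives, 197 were taken as unchanged, by a rule that differed between kinds of result. Fold changes had to keep direction and side of the threshold, and ratios within a library their direction only. Changes by screen had to stay within the counting interval, and counts of guides or hosts past the threshold within a set factor. Day 10 of screen 3, with 21991 named counts, limits what can be said of that screen.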

Other observations

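Unnamed sequences of the table were compared with the 4 guides of Eif5a and Sat1. Of the 216 unnamed sequences, 0 lay within 2 edits of any of them, and the smallest edit distance was 4 for Eif5a guide 1, 5 for Eif5a guide 2, 9 for Sat1 guide 1 and 5 for Sat1 guide 2. A single unnamed sequence, with 2 counts in all, shared 8 bases with an end of Eif5a guide 1, and a single one, with 1 count, did so with Sat1 guide 2.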
